A study of Mus musculus with 2 samples.

Results

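The interferon response genes followed here were 39 genes of the interferon pathway, from its cell surface receptors and transcription factors to the antiviral proteins that it induces. They were chosen by gene symbol and not by their measured levels, though with earlier results of these data known. Each had 1 row among the 18498 rows of the deposited mRNA-Seq table. The table compares 2 libraries of male C57BL/6J mice aged 12 to 30 weeks, with no treatment and no genetic change. One library was made from the circumvallate papillae (CvP), the taste papillae at the back of the tongue, and the other from tongue epithelium without papillae (Epi). The RNA of 20 or more animals was pooled for each library, and the dissected CvP also held epithelium around the taste buds. The study made the comparison to find genes expressed more strongly in the CvP than in the Epi.

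Interferons are secreted signals of antiviral defence. Type I interferons bind the receptor made of Ifnar1 and Ifnar2, and interferon gamma binds the receptor made of Ifngr1 and Ifngr2. The Janus kinases attached to these receptors phosphorylate Stat proteins. Stat2 and Irf9 belong to the factor that then binds the interferon-stimulated response element (ISRE) in the promoters of target genes, whereas the signal of interferon gamma acts through the gamma-activated site (GAS). The target genes encode proteins that detect viral RNA, degrade it, block its translation or keep viruses from entering the cell. Many of them are also expressed at a basal level without infection.

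Levels were given in RPKM, the reads of a gene scaled by the length of its exon model and by the mapped reads of the library. About 28368500 mapped reads lay behind the CvP library and about 27908500 behind the Epi library, as worked out from the smallest values in each. With 1 pooled library per tissue there was no replicate error and no test of a difference between the tissues. Each CvP/Epi ratio is therefore given with a 95% exact (Clopper-Pearson) interval computed from the estimated reads. These intervals cover counting error only, and reads copied by PCR are not independent molecules. In whole tissue, fewer cells of a type and less RNA per cell cannot be told apart.

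The ISRE is the sequence feature that interferon targets are known to share, so promoter windows of members were searched for it. Promoters of 300 bases, from 250 before to 50 after the gene start, were available from RefSeq (build GRCm38.p6) for 33 of the 39 members. All 38 promoter windows of these members also occurred, base for base and on the same strand, in the mm9 genome to which the reads had been mapped. The letters GAAANNGAAA, read on either strand, occurred in at least 1 promoter of 15 members (45.5% of 33), beside 3.99% of the 27025 genes and 3.44% of the 32851 promoters in the table. The letters of the GAS, TTCNNNGAA, read the same on both strands and occurred in 10 members (30.3%), beside 9.55% of the genes and 8.3% of the promoters. Of the 11 GAS matches in members 2 overlapped an ISRE match, and 4 members held both motifs. A match is a description of the letters and does not show that a factor binds there.

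The windows below show the ISRE matches, in capitals, of 7 members from different steps of the pathway, with 12 bases on each side. Each is written 5′ to 3′ on the strand of the gene.
Stat2, chr10:128270264-128270297, + strand: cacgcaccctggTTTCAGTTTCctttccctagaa
Ddx58, chr4:40239802-40239835, - strand: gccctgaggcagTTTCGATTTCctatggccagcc
Oas1a, chr5:120907518-120907557, - strand: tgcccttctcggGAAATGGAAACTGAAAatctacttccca
Ifit1, chr19:34640773-34640825, + strand: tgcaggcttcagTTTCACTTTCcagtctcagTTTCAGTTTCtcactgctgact
Ifit3, chr19:34583361-34583428, + strand: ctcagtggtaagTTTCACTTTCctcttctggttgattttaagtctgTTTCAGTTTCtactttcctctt
Gbp3, chr3:142559987-142560026, + strand: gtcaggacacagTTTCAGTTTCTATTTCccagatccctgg
Isg15, chr4:156200863-156200908, - strand: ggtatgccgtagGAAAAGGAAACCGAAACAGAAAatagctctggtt
In Isg15 3 overlapping matches ran from base -78 to base -57, counting the first base of the gene as 0. In Oas1a a pair of overlapping matches lay just before the gene start, from base -20 to base -5, and in Ddx58 the match began 2 bases after it.

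The IFITM genes had the highest levels (Ifitm2 and Ifitm3) and the largest ratio (Ifitm1) among the members, so their whole promoter windows are shown in the same way, with ISRE matches in capitals.
Ifitm1, chr7:140967826-140968125, + strand: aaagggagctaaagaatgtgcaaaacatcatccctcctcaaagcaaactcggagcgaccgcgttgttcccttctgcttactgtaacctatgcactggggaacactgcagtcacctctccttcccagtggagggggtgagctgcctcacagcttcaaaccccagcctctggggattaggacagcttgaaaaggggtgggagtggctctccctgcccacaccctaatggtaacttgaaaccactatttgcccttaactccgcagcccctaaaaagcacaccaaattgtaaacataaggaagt
Ifitm2, chr7:140955912-140956211, - strand: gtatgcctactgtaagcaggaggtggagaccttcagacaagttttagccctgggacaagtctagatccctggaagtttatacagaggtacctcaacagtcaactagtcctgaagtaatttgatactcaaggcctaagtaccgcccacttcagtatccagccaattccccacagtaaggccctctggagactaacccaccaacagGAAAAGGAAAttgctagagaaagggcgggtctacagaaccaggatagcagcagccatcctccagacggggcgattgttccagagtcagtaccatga
Ifitm3, chr7:141010695-141010994, - strand: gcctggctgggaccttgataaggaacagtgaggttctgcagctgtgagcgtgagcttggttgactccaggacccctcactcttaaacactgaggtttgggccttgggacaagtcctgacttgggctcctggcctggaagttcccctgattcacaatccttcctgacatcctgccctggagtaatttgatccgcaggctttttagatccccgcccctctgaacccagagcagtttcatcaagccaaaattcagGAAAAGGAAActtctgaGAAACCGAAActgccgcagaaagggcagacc
Ifitm2 held 1 match and Ifitm3 held 2, whereas the letters of the ISRE were not found in this window of Ifitm1.

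All 39 members had a higher RPKM in the CvP than in the Epi, although Isg15 and Irf5 turned to the other side once the general shift between the libraries was taken out. Isg15 and Irf5 fell below 1 when each ratio was divided by the median ratio of all rows, and Isg15, Irf5, Oas3 and, by less than 0.01 on the log2 scale, Ifi35 lay under the median of rows of like level. The interval of the ratio lay above 1 for 38 members and included 1 for Isg15 alone. The share of all rows with an interval above 1 was not counted. Of the rows with a mean RPKM of at least 1, 77.4% were higher in the CvP. On the scale log2 of (RPKM + 0.1), 30 of the 39 members were at least 2-fold higher in the CvP, beside 27.2% of all rows. Among the 30 members whose mean RPKM over both libraries was at least 1, 21 were at least 2-fold higher, beside 24.4% of the 11832 rows that passed the same filter. None of these members was at least 2-fold lower, beside 3.37% of those rows. The median member was 2.78-fold higher over all 39 and 2.74-fold higher over the 30.

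**Figure D1:**
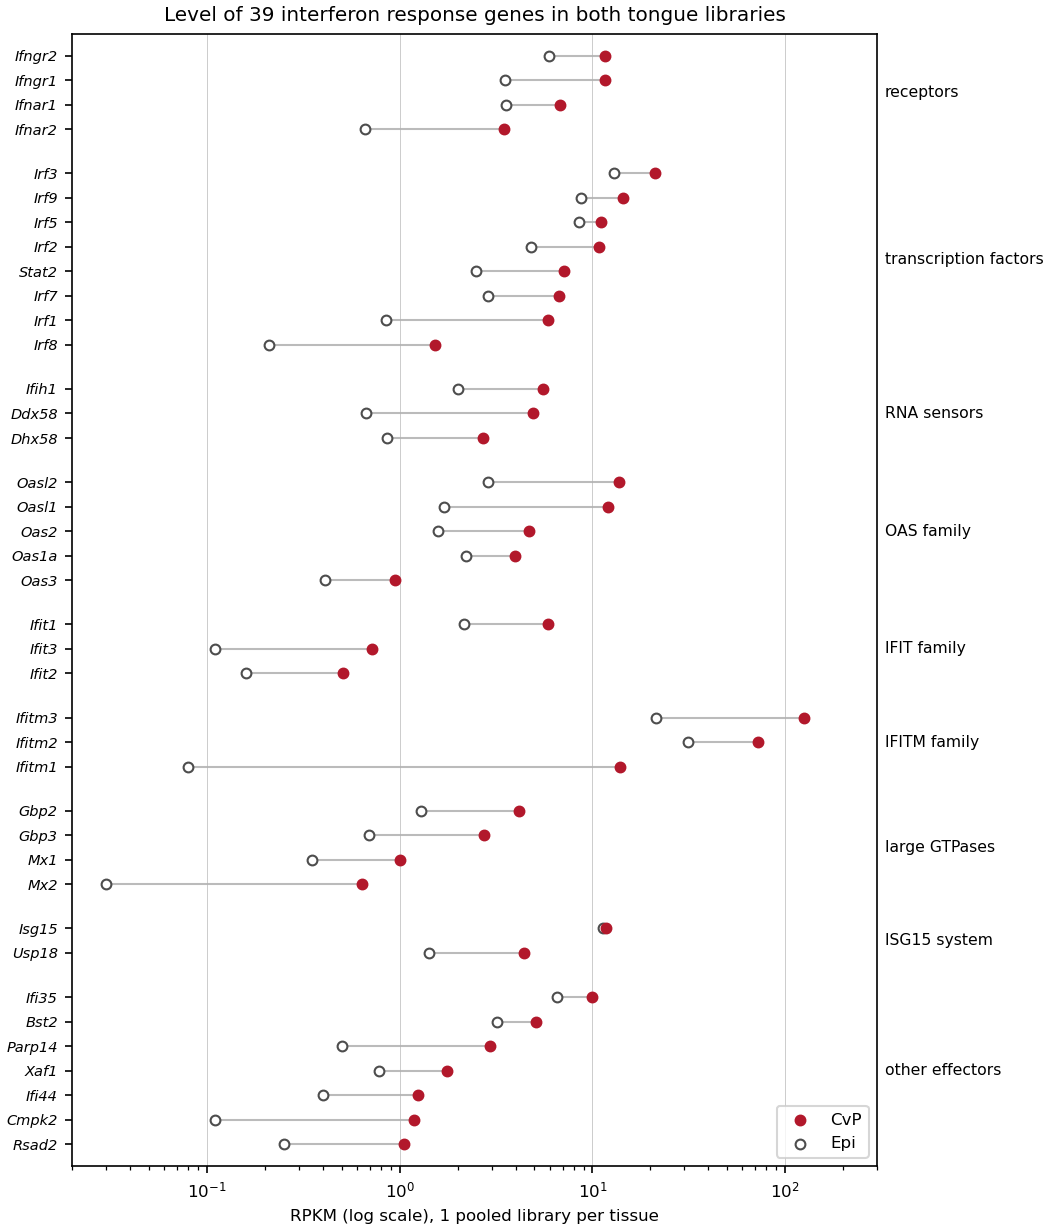
RPKM (log scale) of the 39 members in the CvP library (filled) and the Epi library (open), grouped by role, with a line joining the 2 values of a gene. Every filled point lies to the right of its open point; for Isg15 (11.79 and 11.36) they nearly coincide, and this gene and Irf5 turn to the other side when ratios are divided by the median ratio of all rows, as do Oas3 and Ifi35 against rows of like level.

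The general shift between the libraries was large enough to matter for these counts. Among the rows with a mean RPKM of at least 1, 77.4% were higher in the CvP and the median ratio was 1.38 (0.47 on the log2 scale with 0.1 RPKM added). The rows of highest level in both libraries were keratins of squamous epithelium, Krt13 (17548.78 RPKM in the CvP against 47814.69 in the Epi) and Krt4 (11800.96 and 22405.60). Relative to the median ratio, 15 of the 30 members were still at least 2-fold higher, none was at least 2-fold lower, and the split of all rows changed from 24.4% higher and 3.37% lower to 13.7% higher and 7.93% lower. The interval of the ratio lay wholly above the median ratio for 26 of the 30 members, beside 41.0% of all rows with a mean RPKM of at least 1.

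The ratio also changed with the level of a row, and the members were mostly of low or middle level (medians here are on the scale with 0.1 RPKM added). Rows with a mean RPKM of 1 to 3 had a median ratio of 1.97, and 49.1% of them were at least 2-fold higher in the CvP; all 8 members in this range were, with a median ratio of 3.31. Rows of 3 to 10 RPKM had a median ratio of 1.5, with 25.6% at least 2-fold higher, and 11 of the 17 members in this range reached that fold, with a median ratio of 2.65. In the range of 10 to 30 RPKM, where 12.1% of rows reached it, none of the 3 members (Irf3, Irf9 and Isg15) did. From 30 to 100 RPKM the median row had a ratio of 1.01 and 7.45% of rows reached 2-fold, as did both members there, Ifitm2 and Ifitm3. The 9 members with a mean RPKM under 1 were all at least 2-fold higher, but so were 54.8% of the rows from 0.3 to 1 RPKM. In all, 35 members lay above the median of the rows in their own range and 4 below it. When each ratio was divided by the median of its range, 10 of the 30 members with a mean RPKM of at least 1 remained at least 2-fold higher, beside 12.2% of rows.

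**Figure D2:**
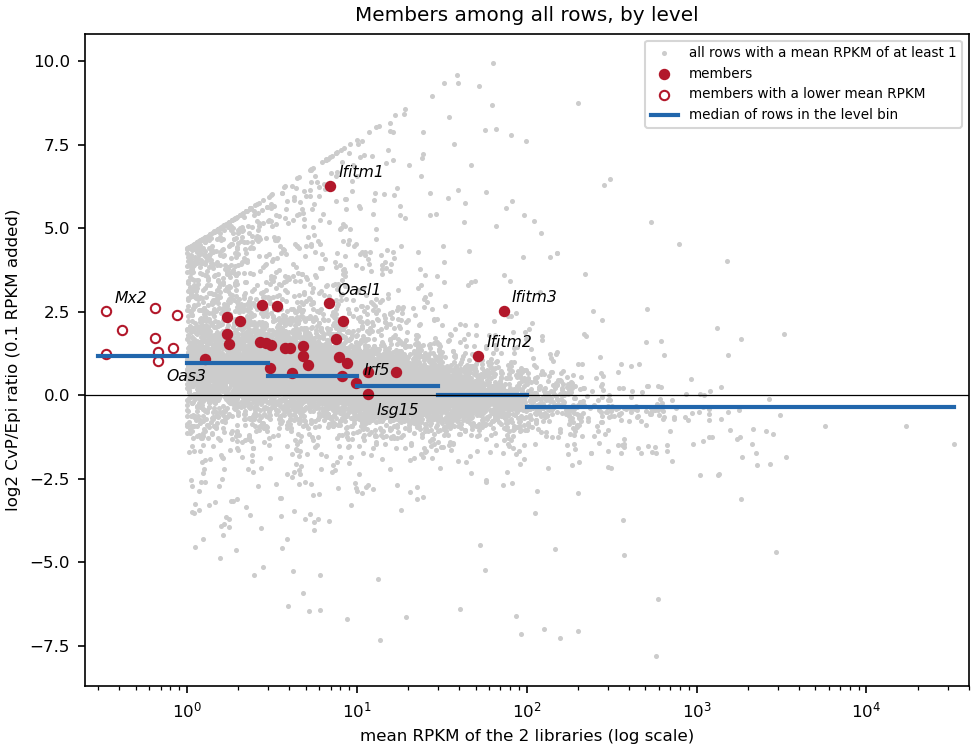
Log2 CvP/Epi ratio (0.1 RPKM added) against the mean RPKM of both libraries (log scale) for the 11832 rows with a mean of at least 1 (grey) and the 39 members (red, open under 1), with the median of all rows in each range of level as blue lines. The blue lines step down as the level rises, and 35 members lie above the line of their range, with Isg15, Irf5 and Oas3 under it and Ifi35 on it.

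The receptor chains were all detected and all had a higher RPKM in the CvP, by ratios from 1.91 to 5.26. The type I receptor chain Ifnar2 was at 3.47 RPKM in the CvP against 0.66 in the Epi, giving a ratio of 5.26 (95% interval 4 to 7.15). Its partner Ifnar1 was at 6.77 and 3.55 RPKM, a ratio of 1.91 (1.75 to 2.09), which does not overlap with that of Ifnar2. Both chains are needed for the signal of type I interferons. For the receptor of interferon gamma, Ifngr1, the ligand-binding chain, was at 11.57 and 3.54 RPKM (3.27, 2.92 to 3.65), and Ifngr2, the accessory chain, at 11.68 and 5.95 RPKM (1.96, 1.78 to 2.17). The ratio of Ifngr1 was larger than that of Ifngr2, with intervals that did not overlap. Which of their levels lay closer together depended on the length used: Ifngr1 was at 0.991 times the level of Ifngr2 in the CvP and 0.595 times in the Epi by listed length, and at 1.78 and 1.07 times by the longest annotated transcript. In the annotation used here for transcripts, 569 exon bases of Ifnar2 (14.6%) are also exon of the neighbouring Il10rb, which was at 23.51 and 24.16 RPKM. The listed positions of the rows do not overlap, since Ifnar2 ends at 91405832 and Il10rb starts at 91406480. Whether reads from the shared bases were counted for either gene is therefore not known.

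Among the transcription factors, 5 of 8 were at least 2-fold higher in the CvP, beside 27.2% of all rows, and Irf1 and Irf8 stood apart from the rest. Irf1, an early interferon-induced activator, was at 5.91 RPKM in the CvP against 0.85 in the Epi, a ratio of 6.95 (5.56 to 8.69). Irf8, a factor best known from myeloid cells, was at 1.53 and 0.21 RPKM (7.29, 4.27 to 12.6), from 123 and 17 reads. Irf2, which competes with Irf1 for the same sites, was at 10.83 and 4.79 RPKM (2.26, 2.08 to 2.46), and its interval lay wholly under that of Irf1. Of the factors that carry the interferon signal, Stat2 was at 7.13 and 2.50 RPKM (2.85, 2.54 to 3.22) and Irf9, its partner, at 14.37 and 8.76 RPKM (1.64, 1.51 to 1.78). Stat2 thus differed between the libraries more than Irf9, beyond counting error.

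The factors that switch on interferon genes themselves had moderate ratios. Irf3, present in most cells without induction, was at 21.23 and 12.97 RPKM (1.64, 1.52 to 1.76), the highest level of the 8 factors in either library. Irf7, its interferon-induced relative, was at 6.72 and 2.88 RPKM (2.33, 1.92 to 2.85). Irf5, which acts downstream of Toll-like receptors, was at 11.13 and 8.57 RPKM (1.3, 1.19 to 1.42), so its interval reached the median ratio of all rows, and its ratio relative to that median was 0.939. In the annotation used for transcripts, Irf5 shares 411 exon bases (14.2%) with Tnpo3 on the opposite strand. Since use of strand in counting is not given in the sources used here, reads from these bases cannot be told apart.

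All 3 cytoplasmic sensors of viral RNA were at least 2-fold higher in the CvP, beside 27.2% of all rows. This fold was reached by 49.1% of rows from 1 to 3 RPKM, the range of Ddx58 and Dhx58. From 3 to 10 RPKM, the range of Ifih1, 25.6% of rows reached it. Ddx58, which encodes RIG-I, was at 4.89 RPKM in the CvP against 0.67 in the Epi, a ratio of 7.3 (5.89 to 9.22). Ifih1, which encodes MDA5, was at 5.55 and 2 RPKM (2.77, 2.43 to 3.17), and Dhx58, which encodes the regulator LGP2, at 2.69 and 0.86 RPKM (3.13, 2.31 to 4.27). Ddx58 and Ifih1 therefore had similar levels in the CvP, whereas in the Epi the level of Ddx58 was nearer to that of Dhx58. The interval of Ddx58 did not overlap with those of the other sensors.

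The oligoadenylate synthetase (OAS) family makes a small messenger of antiviral defence that leads to the breakdown of RNA, and the OAS-like proteins are its relatives. The OAS-like genes had the larger ratios and, in the CvP, the larger levels. Oasl2 was at 13.80 RPKM in the CvP against 2.88 in the Epi, a ratio of 4.79 (4.18 to 5.51), and Oasl1, a regulator of Irf7 translation, was at 12.09 and 1.70 RPKM, a ratio of 7.11 (5.75 to 8.82). The classical synthetases were lower in the CvP: Oas2 was at 4.70 and 1.58 RPKM (2.97, 2.5 to 3.57), and Oas1a at 3.95 and 2.21 RPKM (1.79, 1.43 to 2.27). In the Epi the level of Oas1a lay above that of Oasl1. Oas3, at 0.95 and 0.41 RPKM (2.32, 1.67 to 3.24), was under the filter and, relative to rows of like level, lay 0.14 below their median on the log2 scale. The intervals of both OAS-like genes lay above those of the 3 synthetases. Of the 75-base windows of Oas1a 47.2% also occur in Oas1g, so the level of Oas1a is uncertain.

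The IFIT proteins bind viral RNA that lacks the marks of host mRNA and block its translation. Only Ifit1 passed the filter on low levels, at 5.89 RPKM in the CvP against 2.16 in the Epi, a ratio of 2.73 (2.27 to 3.29). Ifit2 was at 0.51 and 0.16 RPKM (3.19, 1.81 to 5.62), from 57 and 18 reads. Ifit3 was at 0.72 and 0.11 RPKM (6.55, 2.84 to 19.4), from 41 and 6 reads, and 41.1% of its 75-base windows also occur in the adjacent copy listed as I830012O16Rik (Ifit3b). The intervals of the 3 genes overlapped, and a difference among their ratios was not detectable at this depth.

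The IFITM proteins sit in cell membranes and hinder the entry of enveloped viruses. They supplied the highest levels and the largest ratio of all members. Ifitm3 was at 124.78 RPKM in the CvP against 21.51 in the Epi, a ratio of 5.8 (5.21 to 6.48). Ifitm2 was at 71.95 and 31.42 RPKM, a ratio of 2.29 (2.14 to 2.45). The intervals of this pair did not overlap, so Ifitm3 differed more between the libraries than Ifitm2, beyond counting error. The order of their levels depended on the length used. By listed length the level of Ifitm3 was 1.73 times that of Ifitm2 in the CvP and 0.685 times in the Epi, but the listed length of Ifitm2 (1.392 kb) was 2.14 times its longest annotated transcript. By transcript length Ifitm3 was at 0.775 times the level of Ifitm2 in the CvP and 0.306 times in the Epi, so that Ifitm2 was the higher one in both libraries.

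Ifitm1 was at 13.85 RPKM in the CvP against 0.08 in the Epi, that is, about 330 reads and 2 reads. Its ratio was 173 with a wide interval of 44.6 to 1350, and 108 when the Epi was set to 3 reads. Between the libraries its share of the summed RPKM of the 3 genes came to 6.58% for the CvP and 0.151% for the Epi by listed length (4.61% and 0.0868% by transcript length). Among all rows with a mean RPKM of at least 1, 0.609% had a larger log2 ratio than Ifitm1. Its promoter window was the one of the 3 with no match to the ISRE letters.

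The large GTPases of the MX and GBP families were all at least 2-fold higher in the CvP, at low levels where this fold was common. It was reached by 54.8% of all rows from 0.3 to 1 RPKM, the range of Mx1 and Mx2. From 1 to 3 RPKM, the range of Gbp2 and Gbp3, 49.1% of rows reached it. Gbp2 was at 4.14 RPKM in the CvP against 1.29 in the Epi (3.21, 2.53 to 4.14), and Gbp3 at 2.73 and 0.69 RPKM (3.96, 2.88 to 5.46). Guanylate-binding proteins act on intracellular pathogens and are classical targets of interferon gamma. Mx1, whose protein blocks influenza virus but is not functional in most laboratory strains, C57BL/6J included, was at 1.00 and 0.35 RPKM (2.86, 1.85 to 4.51). Mx2 was at 0.64 and 0.03 RPKM, from 44 and 2 reads, with a ratio of 21.3 (5.65 to 184) that was 14.4 when the Epi was set to 3 reads.

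Isg15 and Usp18 act on one pathway and had different ratios. Isg15, a ubiquitin-like protein that is attached to other proteins, was at 11.79 RPKM in the CvP against 11.36 in the Epi, a ratio of 1.04 (0.897 to 1.2). A difference was not detectable at this depth, and the interval leaves room for a CvP level up to 1.2 times that of the Epi. Isg15 ranked 8 of 39 by level in the CvP and 4 of 39 in the Epi, although its promoter window held more ISRE matches than that of any other member with a window. Usp18, the protease that removes Isg15 and also restrains the type I receptor, was at 4.44 and 1.42 RPKM (3.13, 2.39 to 4.16), and its interval did not overlap with that of Isg15.

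The remaining effectors had ratios from 1.51 to 10.7. Cmpk2, a mitochondrial nucleotide kinase, was at 1.18 RPKM in the CvP against 0.11 in the Epi (10.7, 5.51 to 22.6), from 107 and 10 reads. Its neighbour Rsad2, which encodes the antiviral enzyme viperin, was at 1.05 and 0.25 RPKM (4.2, 2.77 to 6.83), and the intervals of the pair overlapped. Parp14, an ADP-ribosyltransferase, was at 2.95 and 0.50 RPKM (5.9, 4.78 to 7.37). These 3 genes had the largest ratios of the group, but Cmpk2 and Rsad2 were under the filter on low levels.

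Ifi44, a cytoplasmic protein induced by type I interferons, was at 1.25 and 0.40 RPKM (3.12, 2.11 to 4.87), and Xaf1, a pro-apoptotic protein, at 1.77 and 0.78 RPKM (2.27, 1.74 to 3.01). Bst2, which encodes the protein tetherin that holds budding virus at the cell surface, was at 5.11 and 3.18 RPKM (1.61, 1.18 to 2.2). Ifi35, which binds other interferon-induced proteins, was at 9.90 and 6.56 RPKM (1.51, 1.3 to 1.75), the ratio at the median of rows of its level, and 290 of its exon bases (16.8%) lie opposite Gm11626. The intervals of Bst2 and Ifi35 both included the median ratio of all rows.

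**Figure D3:**
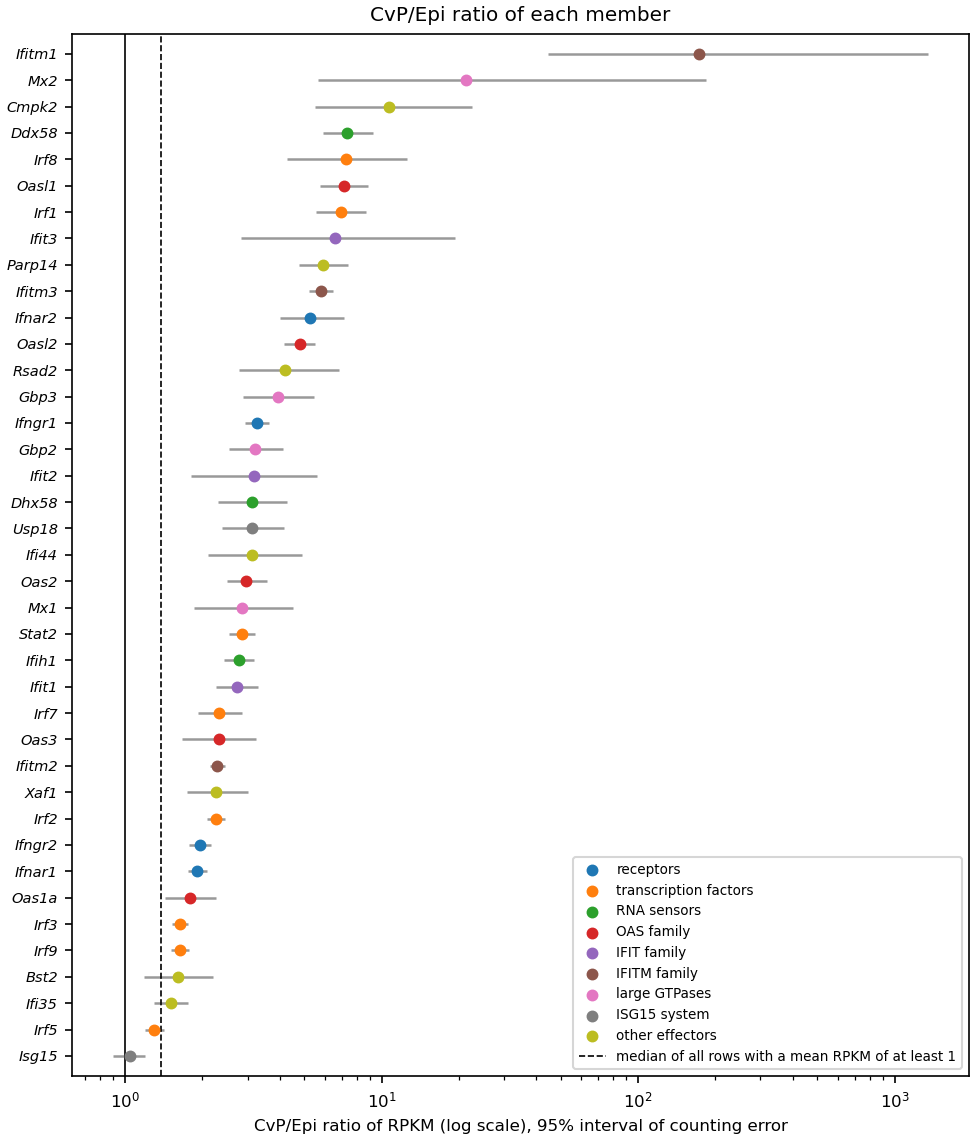
CvP/Epi ratio of RPKM (log scale) of each member, in order of the ratio, with 95% intervals of counting error and colours by role; the solid line marks a ratio of 1 and the dashed line 1.38, the median of all rows with a mean RPKM of at least 1. The interval of Isg15 alone crosses the solid line, and the points of Isg15 and Irf5 lie left of the dashed line.

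Ranked by ratio, the members had overlapping intervals in each of the 38 pairs of neighbours. Such overlap of neighbours in rank does not show that the ratios form a continuous series. The interval of Ifitm1 (44.6 to 1350) overlapped only with that of Mx2 (5.65 to 184), which rests on 2 reads in the Epi. The next highest upper bound was 22.6, for Cmpk2. Members of 1 family were spread along the order, with Ifitm1 at its top and Ifitm2 in its lower part, and Ddx58 above Ifih1. By level, the members kept much of their order in both libraries (Spearman's rho 0.82 across 39 genes, which are not independent replicates and share libraries and lengths). The summed RPKM of the members was 427 in the CvP against 150 in the Epi, a ratio of 2.85 by listed length and 2.57 by transcript length. Ifitm2 and Ifitm3 made up 46.1% of the CvP sum and 35.3% of the Epi sum, and without the 3 IFITM genes the sums were 216 and 96.9, a ratio of 2.23. In the CvP 35 members were at 1 RPKM or more and 12 above 10, and in the Epi these counts were 22 and 4. By transcript length they were 33 and 15 in the CvP and 24 and 7 in the Epi. The median level of all rows was also higher in the CvP, 3.74 RPKM against 1.94 in the Epi. The share of all rows above these limits was not counted.

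The limits named by the study for genes enriched in the CvP, a CvP RPKM above 10 and a ratio above 3, were applied here to the deposited table. They were met by 5 of 39 members, beside 2.35% of all rows (435 of 18498). These were Ifngr1, Oasl1, Oasl2, Ifitm1 and Ifitm3. Of the other members 7 were above 10 RPKM in the CvP with a ratio of 3 or less, and 15 had a ratio above 3 at a lower level, Irf1 and Ddx58 among them.

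Members with and without the ISRE letters had medians close to each other. With 0.1 RPKM added, the 15 members with a match had a median ratio of 2.69, and the 18 members with a promoter window and no match one of 2.52. In each set 12 members were at least 2-fold higher in the CvP, beside 27.2% of all rows. Without the added value the ratios ran from 1.04 to 7.3 with a match and from 1.3 to 173 with none. Over all rows with a mean RPKM of at least 1 and a promoter window, the 312 with a match had a median ratio of 1.46, beside 1.39 over all 9197. Ddx58 was the member with the largest ratio among those with a match, and Isg15 the one with the smallest.

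Several members lie side by side in the genome with related genes. In 9 such groups of listed genes, 22 pairs were next in chromosome order and had reads in both libraries. Genes outside the lists can lie between them. Of these pairs 14 had overlapping intervals of the ratio and 8 did not. All pairs of the IFIT and GBP groups and Rsad2 with Cmpk2 overlapped. Of the 9 pairs made of members alone 5 overlapped. On chromosome 16 (mm9), Ifnar2, Il10rb, Ifnar1 and Ifngr2 lie in this order within 191 kb (91373028 to 91564252). Il10rb, a chain shared by the receptors of interferon lambda and interleukin 10, had a ratio of 0.973 (0.916 to 1.03), whereas Ifnar2 just before it had 5.26. On chromosome 7 the 3 IFITM members lie within 67.9 kb (148134861 to 148202791) together with Ifitm5 and Ifitm6, which were at most at 0.50 RPKM in the CvP. The direction of Ifitm1 is opposite to that of Ifitm2 and Ifitm3. On chromosome 5 the OAS genes span 177 kb (121180342 to 121357534) and the OAS-like genes a separate 41 kb (115346943 to 115387920). In the OAS group Oas1b, next to Oas1c, had the largest ratio, 4.51 (2.77 to 7.75), with an interval that overlapped with that of Oas2 (2.5 to 3.57), beside 1.79 for Oas1a and 1.74 (1.19 to 2.54) for Oas1g, which share sequence. Parp14 lies near Dtx3l and Parp9 on chromosome 16, and these neighbours had ratios of 3.03 (2.69 to 3.43) and 2.86 (2.51 to 3.26), under that of Parp14.

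**Figure D4:**
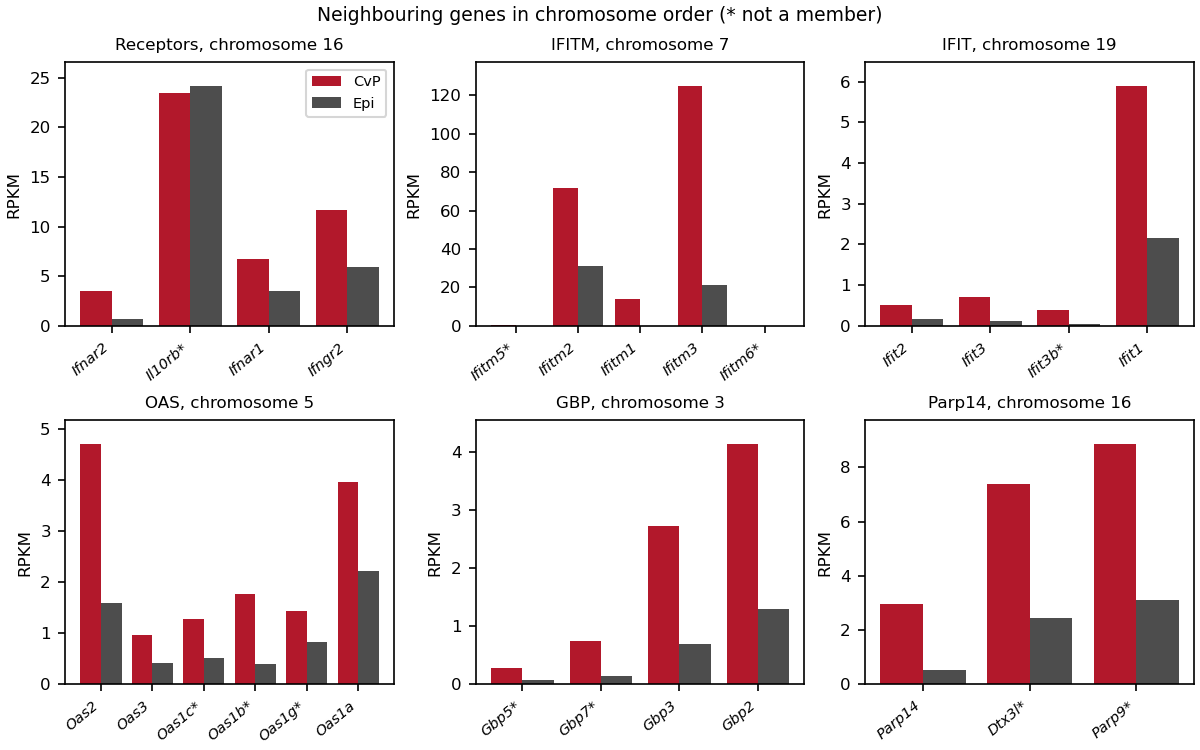
RPKM in the CvP (red) and the Epi (grey) of members and nearby related genes (marked with a star) in chromosome order, each panel with its own scale from 0. Il10rb stands at 23.51 and 24.16 RPKM between receptor chains that were higher in the CvP, and Ifitm1 has a CvP bar of 13.85 RPKM and an Epi bar too small to see (0.08).

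The interferon genes that had a row were at the limit of detection. Of 19 interferon ligands 6 had a row (Ifna12, Ifna13, Ifnab, Ifnz, Ifng and Il28a), with at most 4 reads in the CvP against 6 in the Epi, and 3 were listed at 0 in each library. Their sums were 0.29 RPKM in the CvP against 0.22 in the Epi. At this depth a difference in these 6 ligands was not detectable, and the other 13 had no row. The chain specific for interferon lambda, Ifnlr1 (listed as Il28ra), was at 3.64 RPKM in the CvP against 4.22 in the Epi, a ratio of 0.863 (0.754 to 0.987), unlike the type I and gamma receptors.

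The kinases shared by several cytokines had smaller ratios than most members. Jak1 was at 26.10 and 19.04 RPKM (1.37, 1.31 to 1.43), Jak2 at 16.37 and 7.36 RPKM (2.22, 2.08 to 2.38) and Tyk2 at 6.02 and 2.70 RPKM (2.23, 1.98 to 2.52). Jak1 serves the type I and the gamma receptor alike, with Tyk2 as its partner at the former and Jak2 at the latter. Relative to the median ratio of all rows, that of Jak1 was close to 1.

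Of 80 other genes of the pathway 65 had a row, and 39 of these had a mean RPKM of at least 1. Of the 39, 21 were at least 2-fold higher in the CvP, beside 24.4% of all such rows, none was at least 2-fold lower, and the median was 2.1-fold, under the 2.74-fold of the members. Genes with large ratios were Tmem173, Plscr1, Lgals3bp and Uba7. Tmem173, which encodes the DNA-sensing adaptor STING, was at 11.99 RPKM in the CvP against 0.06 in the Epi, from 783 and 4 reads (200, 74.9 to 709). Plscr1, a phospholipid scramblase, was at 10.84 and 0.29 RPKM (37.4, 26.9 to 53.1). Lgals3bp had a ratio of 10.1 (7.37 to 14.4) and Uba7, the enzyme that activates Isg15 for its attachment, one of 11.3 (6.75 to 20.1). At the other end were Ifnlr1, Il10rb, Ifi27 (listed as Ifi27l1; 1.06, 0.988 to 1.14), Trim25 (1.18, 1.13 to 1.22) and the kinase Ikbke (1.18, 1.12 to 1.25). The intervals of Ifi27 and Isg15 both included 1. Ifi27l2a, a nearby relative of Ifi27 in the same list, was at 33.65 and 22.29 RPKM (1.51, 1.3 to 1.76), with an interval above 1.

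Markers of other cell types also differed between the libraries, and their part in the members' ratios was not tested. All 9 macrophage markers were at least 2-fold higher in the CvP, beside 27.2% of all rows, though 2 of them had a mean RPKM under 1. Their sums were 55.5 RPKM in the CvP against 8.45 in the Epi. Cd14 was at 20.41 and 0.94 RPKM, Cd68 at 10.81 and 4.45, and C1qb at 6.08 and 0.57. All 6 general leukocyte markers were also at least 2-fold higher, 1 of them with a mean RPKM under 1. Their sums were 39.3 and 4.23 RPKM, with Lcp1 at 21.33 and 1.06 RPKM, Laptm5 at 6.34 and 1.15, and Tyrobp at 5.04 and 0.76. None of the macrophage and general leukocyte markers was at 0 in either library. Markers of T and B cells were near the limit of detection, with sums of 1.52 and 0.41 RPKM over 9 rows of 10 genes and 4 of them at 0 in the Epi; the leading ones were Cd79b at 0.80 and 0.00 RPKM, Cd3g at 0.24 and 0.10, and Cd4 at 0.15 and 0.06. Markers of Langerhans and dendritic cells were low and went both ways (4 of 6 higher, sums 3.11 and 2.03 RPKM), with Itgax at 1.70 and 0.44 RPKM, Flt3 at 0.28 and 0.05, and Cd207, which marks Langerhans cells, at 0.85 and 1.33.

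Markers of taste cells matched the tissue labels, whereas those of squamous epithelium went both ways. All 6 taste cell markers were higher in the CvP, with sums of 354 and 5.09 RPKM and 1 marker at 0 in the Epi; Gnat3 was at 127.11 and 0.03 RPKM, Plcb2 at 70.01 and 0.12, and Entpd2 at 54.83 and 4.53. Of 5 squamous epithelium markers 2 were higher in the CvP, and the sums were 31200 and 72700 RPKM; Krt5, of the basal layer, was at 1505.71 and 1270.54. All 5 skeletal muscle markers were lower in the CvP (sums 4.15 and 45.6 RPKM), with Acta1 at 0.86 and 12.88 RPKM, Ckm at 0.67 and 10.56, and Tnnt3 at 0.75 and 9.85. Of 6 fibroblast markers 5 were lower in the CvP (sums 27.5 and 128 RPKM), mostly through Dcn at 26.07 and 127.62 RPKM; Col3a1 was at 0.05 and 0.25, and Pdgfra at 1.30 and 0.07. Of 7 endothelium markers 5 had a row and 3 were higher, with sums of 2.86 and 0.41 RPKM set mainly by Tek at 2.49 and 0.07, whereas Pecam1 was at 0.28 and 0.12 and Tie1 at 0.03 and 0.14.

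**Figure D5:**
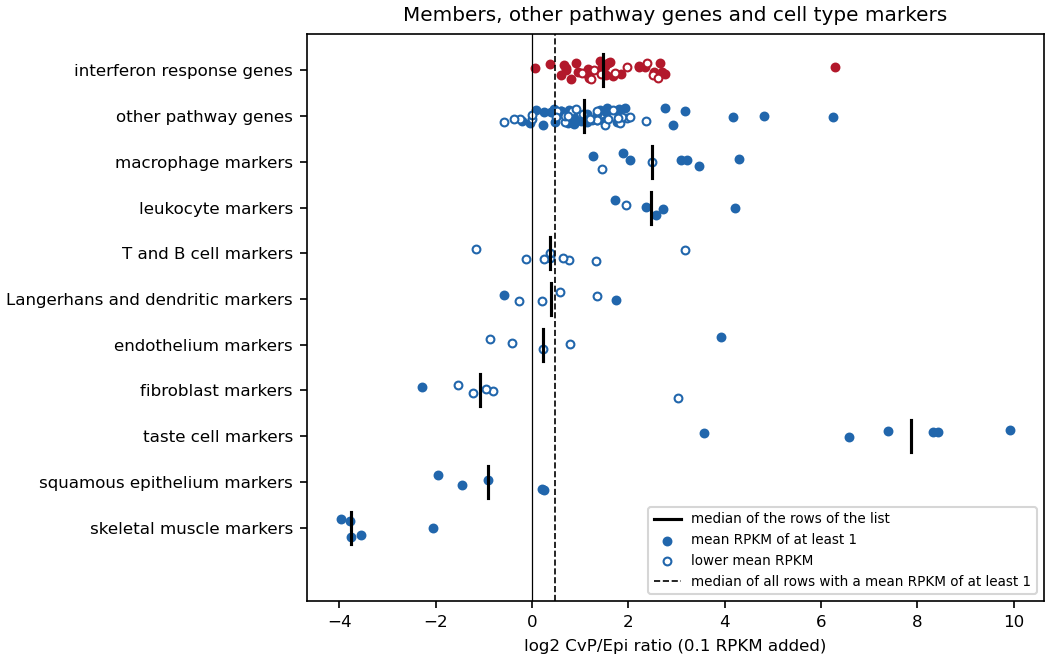
Log2 CvP/Epi ratio (0.1 RPKM added) of the members (red), other pathway genes and cell type markers (blue, open where the mean RPKM is under 1), with the median of each list as a bar, a ratio of 1 as the solid line and the median of all rows with a mean RPKM of at least 1 as the dashed line. The bar of the members lies at 1.48, that of the other pathway genes at 1.07 and those of the macrophage and leukocyte markers at 2.48 and 2.47, while the fibroblast, squamous epithelium and muscle bars lie below 0; Isg15 and Irf5 are the members left of the dashed line.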

How the data were processed

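Poly(A) RNA of 1 pooled CvP and 1 pooled Epi sample was made into TruSeq libraries and read in 75-base single-end reads. The authors mapped the reads to mm9 with Bowtie 0.12.7, computed RPKM per gene with ERANGE and deposited 1 table of RPKM values with gene length and position; its column of CvP/Epi ratios holds the authors' own comparison and was not used. Use of strand in counting is not given in the sources used here.

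The members and all lists were chosen with earlier results of these data known. Reads were estimated as RPKM × listed length × mapped reads. Mapped reads (28368500 and 27908500) were found from the smallest values, by which 96.1% and 95.8% of low values of short rows became whole reads. Intervals were 95% Clopper-Pearson intervals, and with 1 library per tissue no test was made. Counts used log2 of RPKM + 0.1 with a 2-fold limit, and a mean RPKM of at least 1 where stated; ratios of single genes had no pseudocount. Where the Epi had 1 to 3 reads, the ratio is given with its interval and also against 3 reads. Named genes were every member, the interferon ligands, and the receptor chains and kinases of the pathway list. Also named were the 5 highest and 5 lowest of the other pathway genes by log2 ratio, and the 3 most abundant markers of each list. Nearby relatives (Ifitm5, Ifitm6, Oas1b, Oas1c, Oas1g, Dtx3l, Parp9, Ifi27l2a and those in the plot of neighbours) were added by position. Some genes that this rule names are not reported here. Shared sequence was counted as 75-base windows of the longest annotated transcript. Python 3.11.15, numpy 2.4.6, pandas 2.3.3, scipy 1.17.1 and matplotlib 3.10.9 were used, and the scripts were tested on simulated data.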

Additional observations from a re-analysis of the deposited data

How the results depend on the processing

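No paired analysis was possible because there was a single library per tissue. For the same reason no replicate could be left out, and the depth limits what can be said of genes with few reads, such as Ifitm1 and Mx2 in the Epi. The count of members at least 2-fold lower in the CvP was 0 under every alternative run. The count at least 2-fold higher was 21 of 30, beside 24.4% of all rows under the same setting. It went to 7 of 14 with a minimum mean RPKM of 5 (14.3% of rows). Relative to the median of rows of like level it was 10 of 30 (12.2% of rows), and with a 3-fold limit 11 (12.5% of rows). Under the other settings the count lay within 1.5 times of 21. The median log2 ratio (1.45) was 1.06 with a minimum of 5, 1.13 with a pseudocount of 1, 0.98 relative to the median or to the trimmed mean ratio, 1.71 with both libraries rescaled to the same sum, and 0.72 relative to rows of like level. The members meeting the study's criteria numbered 5, beside 2.35% of all rows. They numbered 10 with a minimum CvP RPKM of 3 and 7 with a minimum ratio of 2. Relative to the median ratio they numbered 4, and with the same sum 5. The share of all rows was not worked out under these alternatives, so their counts have no background. Without the 3 IFITM genes, an alternative chosen after seeing the data, as was the pseudocount of 0.1 for single ratios, 18 of 27 members were at least 2-fold higher (24.4% of rows). Under pseudocounts of 0.1 and 1, relative to the median ratio and with the same sum, no ratio of a single member at least 2-fold higher turned its direction; relative to the median ratio 2 members lay below 1, and relative to rows of like level Oas3, which was at least 2-fold higher, lay at -0.14 on the log2 scale. By the longest transcript in place of the listed length, also chosen after seeing the data, the level of Ifitm3 over Ifitm2 in the CvP turned from 1.73 to 0.775, and that of Ifngr1 over Ifngr2 from 0.991 to 1.78 in the CvP and from 0.595 to 1.07 in the Epi. With reads counted from the shorter of listed length and longest transcript, no interval changed its side of 1 or of the median ratio. Averaging repeated rows of a symbol did not apply, since no member had more than 1 row.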
